A study of Mus musculus with 15 samples.

Results

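The 36 genes described here encode the glucose transporters, the enzymes of glycolysis and the best known products of the response to low oxygen. They were found by gene symbol in the deposited matrix, where they took 37 of 55359 rows because Aldoa is listed under 2 Ensembl identifiers. RNA was sequenced after poly-A selection from 15 mouse samples in 5 groups of 3, and the main question was how these genes differed between culture and growth under the skin in 2 neuroendocrine lung cancer lines. 46LCNEC_cell was the 46LCNEC line, raised from a tumor that arose after Ad-CMVcre infection of QKO mice and sampled from 3 dishes (A, B and C). 57SCLC_cell was the 57SCLC line, raised from a tumor after Ad-K5cre infection and sampled from 3 flasks (A, B and C). 46LCNEC_allo (tumors 312, 319 and 321) and 57SCLC_allo (tumors 275, 316 and 317) were subcutaneous tumors of the same lines in immunocompetent syngeneic mice. Lung (CT3, CT4 and CT5) was normal lung of littermates, with no ages given in the labels. Both lines, and so all 4 tumor groups, derive from mice engineered to lose 4 tumor suppressors, Rb1, Rbl1 and Trp53 among them. The Cre viruses act from the CMV and the keratin 5 promoter. Each tumor type is a single line, so its 3 samples measure the spread between vessels or between tumors, not between independent cancers. The names of the cultures carry strings of numbers that could be dates, but the labels do not say what they are. The strings differ between the lines and between A, B and C. Neither the line nor flask C described below can therefore be told apart from whatever they stand for. By the methods, the SCLC cells grew in suspension and the LCNEC cells as an adherent monolayer. The passage also differed between the lines, in culture and for the cells transplanted. The line therefore cannot be told apart from growth form in culture, or from passage in any tumor group.

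Glycolysis splits glucose into pyruvate in a chain of enzymes that starts with uptake and phosphorylation and ends with pyruvate kinase, and lactate dehydrogenase with the monocarboxylate transporters disposes of the product when it does not enter the mitochondria. The hypoxia-inducible factors HIF-1 and HIF-2 are stable at low oxygen and are destroyed after prolyl hydroxylation when oxygen is plentiful. They bind a short core sequence near their target genes, and many glycolytic enzymes, together with carbonic anhydrase IX, the hydroxylase Egln3 and the mitophagy receptor Bnip3, are classical targets. Solid tumors are known for regions that oxygen reaches poorly.

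Values are normalized counts, the reads per gene divided by the size factor of the sample, given as single samples or as mean ± SD with n = 3. The reads behind a sample ranged from 9480244 (tumor 275) to 44876572 (flask C of 57SCLC_cell). The test was that of limma, run on log2(normalized count + 1). A gene was called, and is then written as risen or fallen, where its adjusted p was 0.01 or lower and its log2 difference was 1 or more in size, which is 2-fold. Of the 36 genes, 34 reached the filter of 10 normalized counts in 3 samples in each comparison. Hif1a, which encodes the HIF-1 alpha subunit, Adm, which encodes adrenomedullin, and the second Aldoa identifier (ENSMUSG00000114515) were listed at 0 in every sample. For Hif1a and Adm the zeros are given as listed values only. The leukocyte marker Itgam, the muscle marker Acta1, the red cell marker Alas2 and the pentose phosphate gene G6pdx were also listed at 0 in every sample. In Lung the summed leukocyte markers other than Itgam were 88852 to 117253. A listed 0 is therefore not read as absence of expression.

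In 2 libraries these genes stood apart from the other replicates. Flask C of 57SCLC_cell had 12 of the genes at least 2-fold above both flasks A and B, against 3.91% of all genes. It held the highest value of the group in 28 of the 33 genes that reached 10 normalized counts in a flask, against 42.6% of all such genes. The 12 genes were Hk2, Ndrg1, Pdk1, Aldoc, P4ha1, P4ha2, Slc16a3, Pfkfb3, Ankrd37, Pgk1, Ldha and Bnip3. Tumor 319 of 46LCNEC_allo was the highest of its group in 30 of 34 genes, against 32.8% of all genes. It had 12 genes at least 2-fold above both tumors 312 and 321, against 2.53% of all genes. Those were Ndrg1, Pdk1, Aldoc, P4ha2, Pfkp, Car9, Slc2a1, Egln1, Egln3, Gpi1, Ankrd37 and Bnip3. In flask C the summed leukocyte markers were at 260, between 248 and 275 in the other flasks. Those of endothelium (7768) were the highest of the 3 flasks. Those of fibroblasts (22.4), skeletal muscle (236), keratinocytes (152), lung epithelium (423) and neuroendocrine cells (29589) were the lowest. Their part in the values of flask C was not tested. In tumor 319 the summed markers of endothelium (5514) and of leukocytes (22014) were the lowest of the 3 tumors, and those of fibroblasts (590353), neuroendocrine cells (7471) and proliferation (27863) the highest. Their part in the values of tumor 319 was not tested. Most counts of calls, and the values of some of the genes, are given with and without these samples.

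The allografts also held cells of the host. Summed fibroblast markers were 29198 to 32079 normalized counts in 46LCNEC_cell and 284293 to 590353 in 46LCNEC_allo, and 22.4 to 27.3 in 57SCLC_cell and 23777 to 36026 in 57SCLC_allo. Lung held 17615 to 20631. In 46LCNEC_cell Col1a1 was called higher than in Lung, and Dcn, Dpt, Pdgfra and Lum lower. In this line the sum therefore does not separate host fibroblasts from tumor cells. All 6 fibroblast markers rose in both lines. Leukocyte markers were 330 to 384 and 22014 to 48518 in 46LCNEC, and 248 to 275 and 8942 to 14836 in 57SCLC. The 6 neuroendocrine markers Chga, Elavl4, Uchl1, Syp, Scg3 and Ncam1 were all higher than in Lung in 57SCLC_cell and in 57SCLC_allo, where they summed to 29589 to 32010 and to 30037 to 32457. In 46LCNEC_cell the sum of 29337 to 32341 was nearly all Ncam1 (29936 ± 1464), with Uchl1 also above Lung, while Elavl4, Syp and Scg3 were below Lung and Scg3 was at or under 3 reads in every dish. In 46LCNEC_allo the sum was 3126 to 7471 and Ncam1 alone was called higher than in Lung. In bulk samples, fewer cells of a type and less RNA per cell cannot be told apart. Lung carried its own markers, with summed lung epithelial markers of 348240 to 456457, against 126 to 551 in the other samples. Rb1 ranged from 66.6 to 777, Rbl1 from 1172 to 3166 and Trp53 from 923 to 1548 normalized counts in the tumor groups. The highest Rb1 value was that of flask C, against 229 and 236 in flasks A and B and 247 to 329 in Lung. Counts over whole genes do not show which alleles were recombined.

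**Figure D1:**
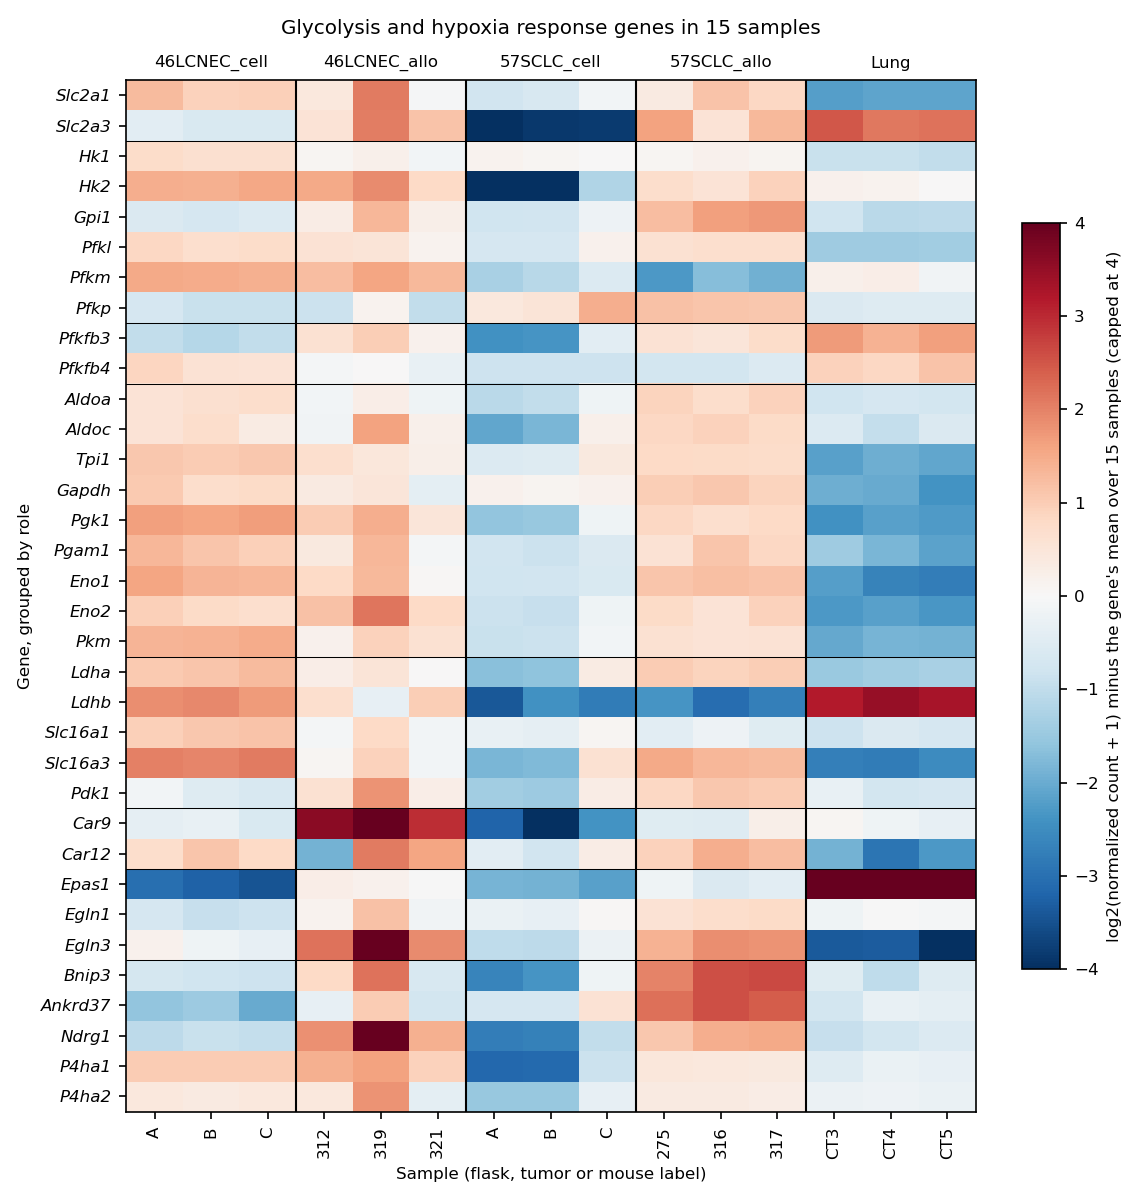
Each row is 1 of the 34 genes with values, grouped by role, and each column 1 of the 15 samples in 5 groups of 3. The color gives log2(normalized count + 1) minus the mean of the gene over the samples, capped at 4. Most rows are lowest in Lung or in flasks A and B of 57SCLC_cell, and flask C and tumor 319 stand out within their groups.

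More of these genes were called between culture and growth under the skin in 57SCLC than in 46LCNEC. In 57SCLC, 22 of 34 rose and 0 fell, with a median log2 difference of 1.58, where 14.4% of 17078 genes rose and 2.29% fell around a median of 0.00. Pfkm, not called here, fell with DESeq2 on the recovered reads and with scaling to the library total, and 29 of the genes in all had an unadjusted p under 0.05 in the limma test. In 46LCNEC, 7 rose and 1 fell with a median of −0.08, against 14.4% of genes risen and 8.45% fallen among 16375, and a median of −0.00. The 7 that rose in 46LCNEC, Slc2a3, Gpi1, Pfkfb3, Car9, Epas1, Egln3 and Ndrg1, also rose in 57SCLC. A further 15 were called in 57SCLC and not in 46LCNEC, and 11 in neither line. With DESeq2 on the recovered reads 46LCNEC had 11 risen and 2 fallen, with Pdk1, Egln1, Ankrd37 and Bnip3 added to the first and Ldhb to the second. Without flask C the 57SCLC count was 26 risen, with Aldoc, Tpi1, Slc16a3 and Ldha added, whereas leaving out a single 57SCLC tumor left between 11 and 13. Without tumor 319 the 46LCNEC count was 6 risen and 6 fallen, without tumor 321 it was 10 and 2, and without any single dish of 46LCNEC_cell it was 3 risen.

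The difference between the lines in this change was tested as an interaction over 12 samples. It was positive for 12 genes and negative for 1, against 10.8% of 18440 genes positive and 6.78% negative. A positive value means a higher log2 difference between allograft and culture in 57SCLC than in the other line. The median over the genes was 1.45 on the log2 scale, against 0.10 over all genes. The 12 were Slc2a3, Hk2, Pfkl, Aldoa, Tpi1, Gapdh, Pgk1, Pgam1, Eno1, Pkm, Ldha and Slc16a3, and the 1 was Epas1. All except Hk2 kept the call when each of the 12 samples was left out in turn. Without flask C there were 16 positive calls, and without tumor 319 there were 17. Of the 12 genes called positive with all samples, only Slc2a3 had a log2 difference above zero in both lines. The other genes of the 12 were higher in the allografts of 57SCLC and lower in those of the other line. There Hk2 was close to unchanged and changed sign with edgeR and DESeq2, and only the decrease of Slc16a3 was called.

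**Figure D2:**
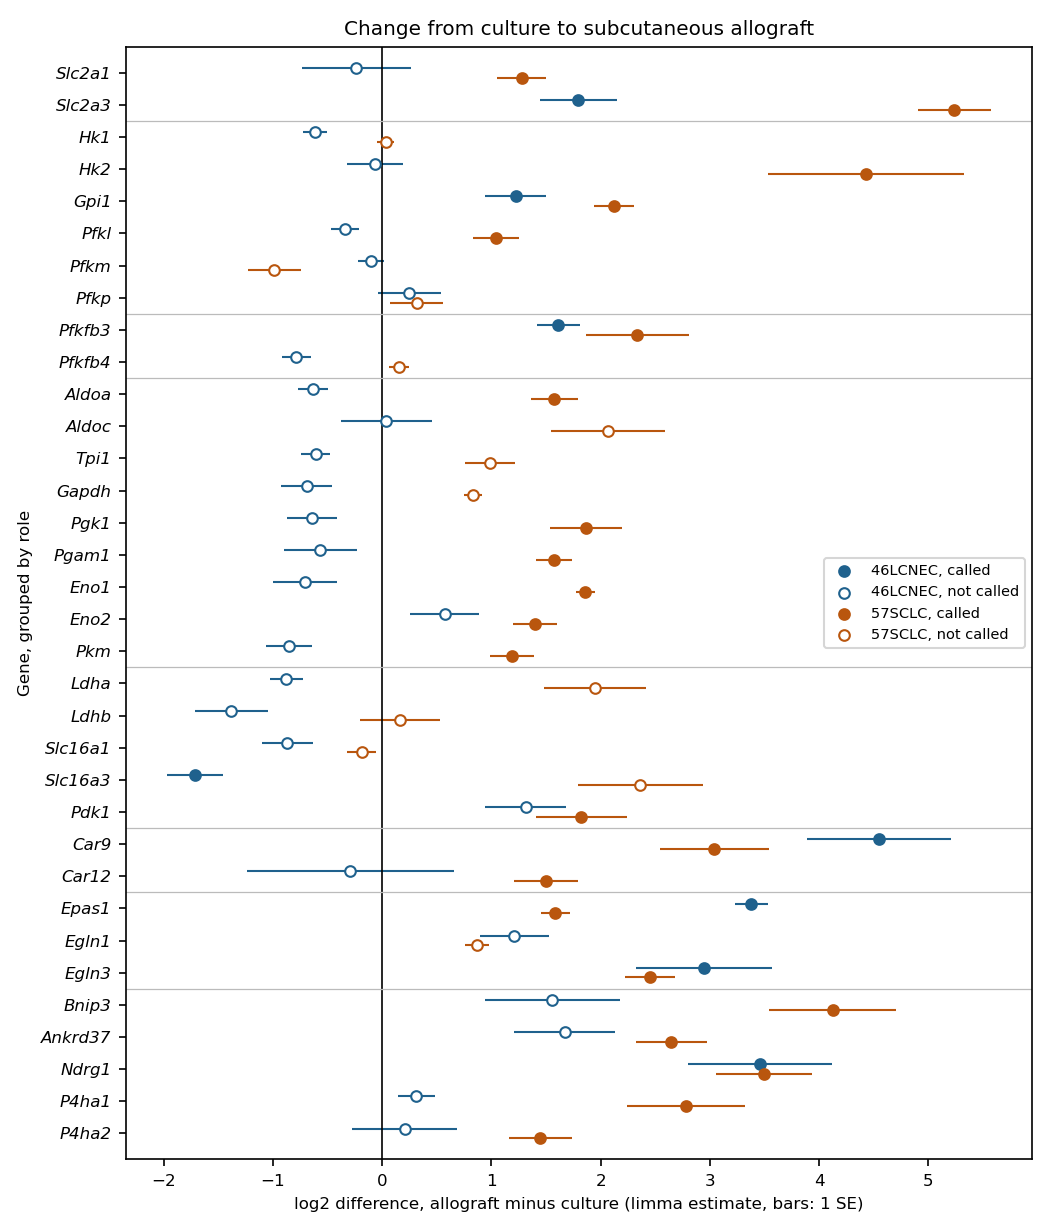
Points give the log2 difference between allograft and culture for each gene in 46LCNEC (blue) and 57SCLC (orange), with bars of 1 SE. Filled points were called, and 22 of the 57SCLC points are filled on the right against 7 on the right and 1 on the left for 46LCNEC.

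Of the glucose transporters, Slc2a3 rose in both lines and Slc2a1 in 57SCLC. Slc2a3 encodes GLUT3, a high-affinity transporter best known in neurons. In 46LCNEC_cell it was at 152, 135 and 135 normalized counts, and in 46LCNEC_allo at 302, 848 and 455. In 57SCLC_cell it was at 7.64, 13.3 and 13.5, and in the 57SCLC tumors at 632, 299 and 506. Every tumor lay above every culture of its line, with a log2 difference of 1.79 (SE 0.35, adjusted p = 0.00458) in 46LCNEC and 5.24 (SE 0.34, adjusted p = 7.16e-06) in 57SCLC. The larger change in 57SCLC differed from that in 46LCNEC by 3.44 (SE 0.53, adjusted p = 0.000407). In 46LCNEC the call was lost without any single dish and without tumor 321, with log2 differences from 1.40 to 2.14 over the samples left out. Leukocytes and endothelium also use this transporter, and Lung held the highest level, 899.6 to 1149 normalized counts, and the part of the host cells described above in the Slc2a3 result was not tested.

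Slc2a1, the widely expressed basal transporter GLUT1, was called in 57SCLC. It was at 628, 685 and 974 in flasks A, B and C and at 1357, 2324 and 1893 in the tumors, a log2 difference of 1.28 (SE 0.22, adjusted p = 0.00242). The call did not hold without tumor 316 or tumor 317, or with all 15 samples in 1 model. In 46LCNEC the dishes held 2564, 1994 and 2073 and the tumors 1415, 4493 and 1021, so tumor 319 lay above and both others below all dishes. The log2 difference was −0.24 (SE 0.50, adjusted p = 0.713), and the difference between the lines was called without tumor 319 (2.15, SE 0.33, adjusted p = 0.000438).

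The first enzyme of the chain is hexokinase, and of its genes Hk2 rose in 57SCLC. Hk2 encodes the inducible hexokinase of muscle and tumors. It was at 28.9 and 18.1 in flasks A and B of 57SCLC_cell, at 317 in flask C, and at 1192, 1083 and 1400.3 in the 57SCLC tumors. All tumors were above all flasks, and the log2 difference was 4.43 (SE 0.90, adjusted p = 0.0053). It was 5.67 without flask C, and leaving out any other single sample ended the call, as did edgeR and DESeq2 on the recovered reads. In 46LCNEC it was already at 2020, 1980 and 2146 in the dishes and at 2122, 2747 and 1277 in the tumors, which overlap. Hk1, the constitutive hexokinase, was at 7239.9 ± 259 in 46LCNEC_cell and 4742 ± 525 in 46LCNEC_allo (log2 difference −0.62, under 2-fold), and at 4821 ± 188 and 4926 ± 140 in 57SCLC.

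Gpi1, the isomerase that turns glucose 6-phosphate into fructose 6-phosphate, rose in both lines. The 57SCLC flasks held 3111, 3204 and 4700 and the tumors 12869, 16758 and 17911, a log2 difference of 2.12 (SE 0.18, adjusted p = 4.32e-05) that was called without any single sample. The 46LCNEC dishes held 3598, 3427 and 3741 and the tumors 6711, 13672 and 6401, with no overlap and a log2 difference of 1.223 (SE 0.28, adjusted p = 0.00855). Without tumor 319 this was 0.87, under the 2-fold limit, and the call also ended without tumor 312, without any single dish and with scaling to the library total.

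Phosphofructokinase, the committed step, is built from liver, muscle and platelet subunits, and of its 3 genes Pfkl alone was called. Pfkl, the liver subunit, rose in 57SCLC from 1966 ± 699 to 3898 ± 130 (log2 difference 1.04, SE 0.21, adjusted p = 0.00475), with the call kept without flask C and lost without any other single sample and with edgeR and DESeq2 on the reads. In 46LCNEC it was at 4164 ± 222 and 3319 ± 489. Pfkm, the muscle subunit, was at 263 ± 76.2 in 57SCLC_cell and 131 ± 26.5 in 57SCLC_allo, a log2 difference of −0.99 that was not called (adjusted p = 0.0127). Pfkp, the platelet subunit, was at 3647 ± 1581 and 4287 ± 117 in 57SCLC and at 1123 ± 108 and 1424 ± 672 in 46LCNEC, with no call in either.

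The enzymes that set fructose 2,6-bisphosphate, the strongest activator of phosphofructokinase, differed from each other. Pfkfb3, whose product mainly makes the activator, rose in both lines. The dishes of 46LCNEC held 813, 728 and 814 and its tumors 2442, 3141 and 1801, a log2 difference of 1.61 (SE 0.20, adjusted p = 0.000577) that held without any single sample. Flasks A, B and C of 57SCLC held 298, 314 and 1183 and its tumors 2403, 2238 and 2672, a log2 difference of 2.34 (SE 0.47, adjusted p = 0.00491), or 2.99 without flask C. The 57SCLC call was lost without any other single sample and with edgeR on the reads. Pfkfb4 was not called in either line, at 1993 ± 244 and 1155 ± 123 in 46LCNEC and 705 ± 5.41 and 788 ± 62.4 in 57SCLC.

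Of the 9 genes of lower glycolysis, 6 rose in 57SCLC, where 14.4% of all genes rose. In 46LCNEC, where 14.4% of all genes rose and 8.45% fell, 0 of the 9 were called by limma, 6 had an unadjusted p under 0.05, 7 of the 9 differences were below 0 and the median was −0.63. The 57SCLC median was 1.57. Pgk1, which makes the first ATP of the chain, was at 614, 644 and 1626 in flasks A, B and C and at 3282, 2936 and 3234 in the 57SCLC tumors. The 46LCNEC dishes held 5724, 5462 and 5921, above all of its tumors at 3752, 5049 and 2561. The log2 difference was 1.87 (SE 0.33, adjusted p = 0.00271) in 57SCLC and −0.64 (SE 0.23, adjusted p = 0.0469) in 46LCNEC, and the lines differed by 2.51 (SE 0.46, adjusted p = 0.00126). Without any single 57SCLC tumor the 57SCLC call was lost, while the difference between the lines stayed called.

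Eno1, the ubiquitous enolase, was at 481, 487 and 546 in the 57SCLC flasks and at 1783, 1893 and 1824 in the tumors, which all lay above the flasks. Its log2 difference of 1.86 (SE 0.09, adjusted p = 1.55e-06) was called without any single sample. In 46LCNEC the dishes held 2455, 2116 and 2083 and the tumors 1436, 2041 and 847, all below the dishes, with a log2 difference of −0.71 (SE 0.29, adjusted p = 0.077). Without tumor 319 this became −1.003 and was called as fallen (adjusted p = 0.00849). Eno2, the neuronal enolase, rose in 57SCLC from 842 ± 256 to 2173 ± 272 (log2 difference 1.40, SE 0.20, adjusted p = 0.000744) and was at 2248 ± 226 and 3608 ± 1818 in 46LCNEC.

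Aldoa, the main aldolase, rose from 4365 ± 1574 to 12533 ± 991 in 57SCLC (log2 difference 1.58, SE 0.22, adjusted p = 0.000634) and was at 10874 ± 547 and 7083 ± 1251 in 46LCNEC. Pgam1, phosphoglycerate mutase, rose from 166 ± 17.6 to 498 ± 91.9 (log2 difference 1.57, SE 0.17, adjusted p = 0.000141). Pkm, pyruvate kinase, rose from 17482 ± 5710 to 38617 ± 914 (log2 difference 1.19, SE 0.20, adjusted p = 0.00226), a call lost without any single 57SCLC tumor. In 46LCNEC, Pkm was at 66716, 67159 and 72384 in the dishes and 28952, 48499 and 39325 in the tumors, which do not overlap. Its log2 difference there was −0.85 (adjusted p = 0.0125), and −1.03 and called without tumor 319 (adjusted p = 0.00372). Tpi1 (log2 difference 0.99), Gapdh (0.83) and Aldoc (2.07, adjusted p = 0.0145) were not called in 57SCLC. Aldoc was at 91.1, 109 and 450 in flasks A, B and C and at 689, 733 and 667 in the tumors, and was called at 2.79 without flask C. Tpi1 and Gapdh stayed under 2-fold in 46LCNEC too, at −0.61 and −0.69, but their difference between the lines was called at 1.60 (SE 0.29, adjusted p = 0.00131) and 1.52 (SE 0.27, adjusted p = 0.000941).

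For Ldha and Slc16a3 the difference between the lines was called, although neither gene was called in 57SCLC. Ldha, the lactate dehydrogenase subunit that favors lactate formation, was at 3015 and 3140 in flasks A and B, at 11893 in flask C and at 19356, 17825 and 18695 in the 57SCLC tumors. The tumors lay above all flasks, but with flask C the log2 difference of 1.95 (SE 0.47, adjusted p = 0.0115) missed the threshold, and without it the difference was 2.60 (SE 0.07, adjusted p = 9.92e-07). In 46LCNEC the dishes held 19778, 20619.7 and 22699 and the tumors 11411, 13610 and 9602, all below the dishes, with a log2 difference of −0.88 (SE 0.15, adjusted p = 0.0026) that was under 2-fold. The lines differed by 2.82 (SE 0.56, adjusted p = 0.00224).

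Slc16a3 encodes MCT4, the transporter that exports lactate from glycolytic cells. It was the 1 gene of the 34 that fell in 46LCNEC, from 21759, 21192.5 and 22930.2 in the dishes to 5754, 10385 and 5053 in the tumors (log2 difference −1.71, SE 0.26, adjusted p = 0.00141). In 57SCLC it was at 1516, 1584 and 8267 in flasks A, B and C and at 15478, 13522 and 12990 in the tumors. That log2 difference of 2.37 (SE 0.58, adjusted p = 0.0123) was not called, and without flask C it was 3.17 (SE 0.09, adjusted p = 1.06e-06). The difference between the lines, 4.08 (SE 0.73, adjusted p = 0.0011), was exceeded among the 13 called by that of Hk2, whose call was lost with edgeR and DESeq2 on the reads, and 44.1% of the exon bases of Slc16a3 are shared with Ccdc57 and Csnk1d. Slc16a1, the MCT1 transporter, was at 4836 ± 349 and 2766 ± 1049 in 46LCNEC and 2043 ± 351 and 1787 ± 180 in 57SCLC, with no call, though in 46LCNEC it was called at −1.16 without tumor 319.

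Pdk1, the kinase that shuts pyruvate out of the mitochondria by blocking pyruvate dehydrogenase, rose in 57SCLC. It was at 713, 674 and 2284 in flasks A, B and C and 3289, 3911 and 3792 in the tumors (log2 difference 1.82, SE 0.41, adjusted p = 0.00905), and 2.40 without flask C. Leaving out any other single sample, edgeR and DESeq2 on the reads, or no filter on low values ended this call. In 46LCNEC all tumors (2850, 6419 and 2243) were above all dishes (1713, 1295 and 1200), with a log2 difference of 1.32 (adjusted p = 0.0204). Ldhb, the heart-type lactate dehydrogenase subunit, was at 319 ± 25.4 and 130 ± 53.7 in 46LCNEC (log2 difference −1.38, adjusted p = 0.0108) and at 11.8 ± 4.03 and 13.1 ± 3.46 in 57SCLC, the latter resting on 25 reads over the 3 tumors.

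**Figure D3:**
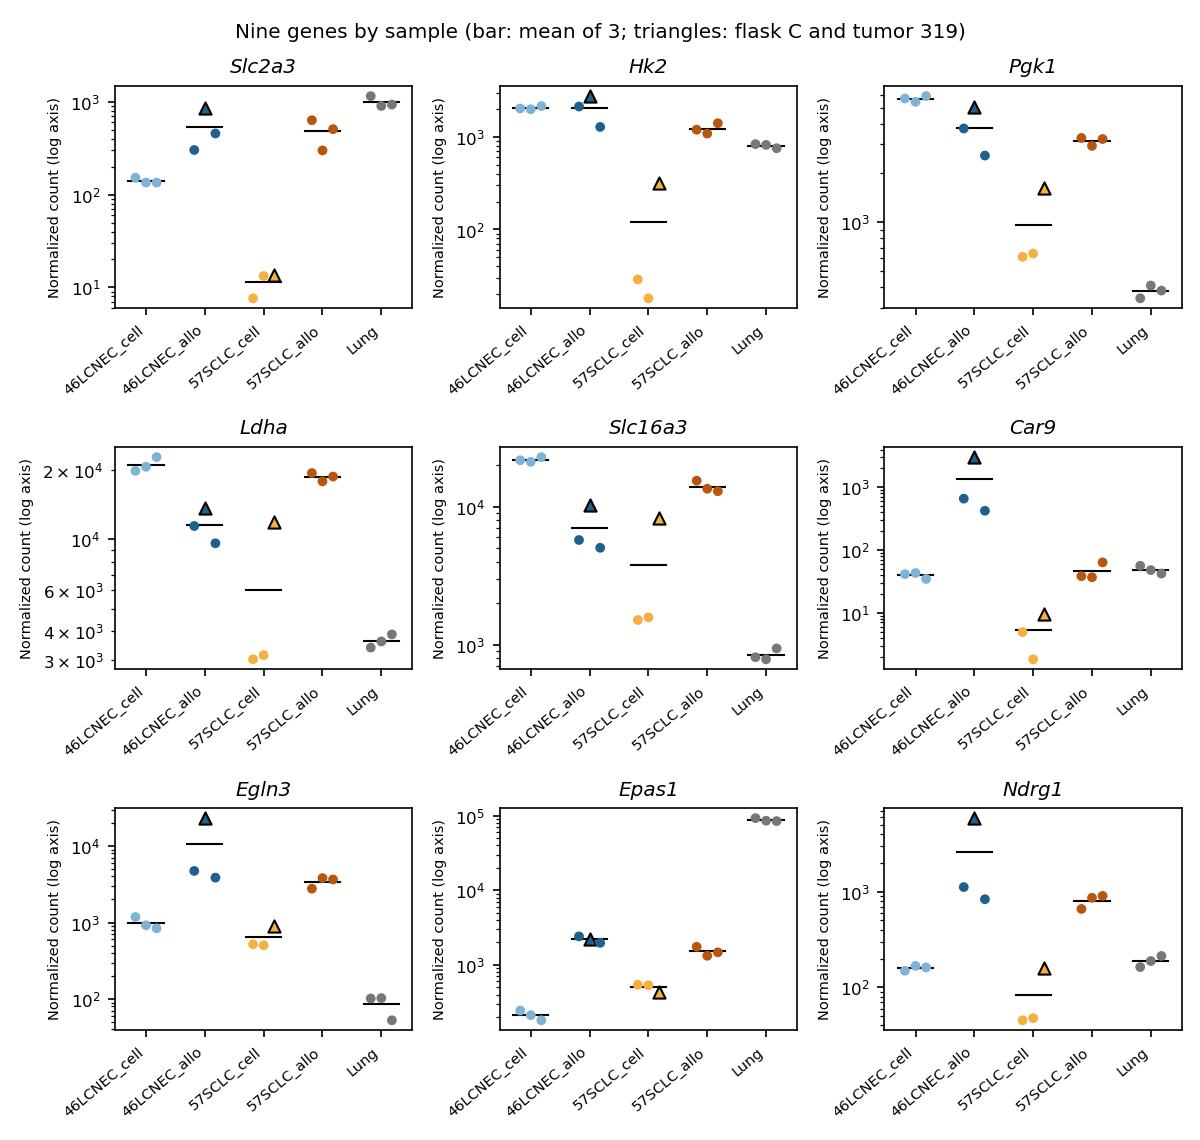
Normalized counts of 9 genes in every sample on a log axis, with the mean of each group as a bar and flask C and tumor 319 as triangles. In Ldha and Slc16a3 the 3 tumors of 46LCNEC lie below its dishes and the 3 tumors of 57SCLC above its flasks, and Car9 in 46LCNEC_allo lies above all other groups.

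Carbonic anhydrases at the cell surface buffer the acid that glycolysis gives off, and Car9 is the gene of this group most closely tied to HIF. In 46LCNEC_cell it was at 41.3, 43.0 and 34.6, and in its tumors at 660, 3033 and 423. Every tumor was above every dish, with a log2 difference of 4.55 (SE 0.66, adjusted p = 0.00124), or 3.71 without tumor 319, and the call held without any single sample. In 57SCLC_cell it was at 4.91, 1.81 and 9.38, resting on 9, 3 and 18 reads, and in the tumors at 38.3, 36.8 and 63.5, a log2 difference of 3.04 (SE 0.50, adjusted p = 0.00172) that was lost without tumor 317. Of its exon bases, 27.5% are shared with Gm12454. Car12 rose in 57SCLC from 57.1 ± 22.1 to 158 ± 30.0 (log2 difference 1.50, SE 0.29, adjusted p = 0.00448), with the call kept without flask C and lost without any other single sample and with all 15 samples in 1 model. In 46LCNEC, Car12 was at 110, 147 and 117 in the dishes and at 17.2, 286 and 200.2 in the tumors, on both sides of the dishes.

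Epas1 encodes the HIF-2 alpha subunit, which is abundant in endothelium and in lung. It was at 244, 212 and 181 in 46LCNEC_cell and 2412, 2231 and 1977 in 46LCNEC_allo, a log2 difference of 3.38 (SE 0.15, adjusted p = 8.45e-06). In 57SCLC it was at 542, 534 and 438 in the flasks and 1747, 1325 and 1475 in the tumors, a log2 difference of 1.58 (SE 0.13, adjusted p = 3.5e-05). All tumors were above all cultures, both calls held without any single sample, and the increase was smaller in 57SCLC, with an interaction of −1.80 (SE 0.21, adjusted p = 4.81e-05). Lung held 87991 ± 4453. Summed endothelial markers were also higher in the tumors, from 348 to 420 in 46LCNEC_cell to 5514 to 9654 in 46LCNEC_allo, and from 7109 to 7768 in 57SCLC_cell to 10360 to 10977 in 57SCLC_allo, against 80168 to 97235 in Lung. The 57SCLC_cell sum was nearly all Vwf (7395 ± 326, and 7353 ± 855 in the tumors). The other 5 of the 6 endothelial markers, Pecam1, Cdh5, Tie1, Emcn and Kdr, rose in both lines. In culture, Cdh5, Tie1 and Emcn were at or under 3 reads in every culture and Kdr in every flask of 57SCLC_cell, while each of the 6 markers exceeded 3 reads in at least 1 tumor of each line. Their part in the Epas1 result was not tested.

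Of the HIF prolyl hydroxylases, Egln3, whose transcript is itself a HIF target, rose in both lines. The 46LCNEC dishes held 1181, 920.5 and 840.3 and the tumors 4723, 23170.5 and 3859.7, a log2 difference of 2.95 (SE 0.62, adjusted p = 0.00627), or 2.14 without tumor 319, where it stayed called. The call was lost without any single dish. The 57SCLC flasks held 519, 505 and 895 and the tumors 2770, 3808 and 3652, a log2 difference of 2.45 (SE 0.23, adjusted p = 6.19e-05) that held without any single sample. Egln1, the main oxygen sensor, was at 2066 ± 205 and 5174 ± 2672 in 46LCNEC (adjusted p = 0.0153) and at 3209.7 ± 463 and 5832 ± 346 in 57SCLC (log2 difference 0.87, adjusted p = 0.000453), neither of them called.

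Of the 5 other hypoxia response genes, 5 rose in 57SCLC and 1 in 46LCNEC, where 14.4% of all genes rose in either line. Their median log2 difference was 2.79 in 57SCLC and 1.56 in 46LCNEC, and the difference between the lines was called for 0 of the 5 by limma (2 at an unadjusted p under 0.05). Ndrg1, a stress response gene, was the one that rose in both. It was at 149, 168 and 161 in the 46LCNEC dishes and 1118, 5873 and 834 in the tumors, a log2 difference of 3.46 (SE 0.66, adjusted p = 0.00409), or 2.59 without tumor 319, and the call was lost without any single dish. In 57SCLC it was at 45.3, 47.6 and 158 in flasks A, B and C and 661, 862 and 903 in the tumors, a log2 difference of 3.50 (SE 0.44, adjusted p = 0.000384).

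Bnip3, a receptor for the removal of mitochondria, was at 27.3, 33.8 and 157 in the 57SCLC flasks and at 706, 1049 and 1109 in the tumors. Its log2 difference of 4.12 (SE 0.58, adjusted p = 0.000761) held without any single sample and was 4.90 without flask C. In 46LCNEC the dishes held 107, 100.4 and 99.2 and the tumors 310, 793 and 113, so all tumors were above the dishes but the log2 difference of 1.56 (SE 0.62, adjusted p = 0.0693) was not called. Ankrd37 rose in 57SCLC from 107 ± 58.6 to 622 ± 82.5 (log2 difference 2.65, SE 0.33, adjusted p = 0.000334), although 81.4% of its exon bases are shared with Lrp2bp and Ufsp2. P4ha1 and P4ha2 encode subunits of the prolyl hydroxylases that act on collagen. P4ha1 was at 349.7, 358 and 1712 in flasks A, B and C and 4204, 4119 and 4067 in the 57SCLC tumors (log2 difference 2.78, SE 0.54, adjusted p = 0.00421), and P4ha2 rose from 1126 ± 587 to 2833 ± 76.5 (1.45, SE 0.29, adjusted p = 0.00494). Both calls ended without any single sample other than flask C, both also ended with edgeR on the reads, and that of P4ha2 with all 15 samples in 1 model. In 46LCNEC neither was called, at 0.31 and 0.21.

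The stretch before the transcription start was read for the 33 genes that have a RefSeq window of mouse assembly GRCm38.p6. Windows for Slc2a3, Epas1 and Ndrg1 were not used here. The core of the HIF binding site, ACGTG or GCGTG, was searched on both strands in the 250 bases before each start, and a CACGTG palindrome counts as 1 place since its strands overlap. At least 1 place was found in 29 of the 33 genes (87.9%) and at least 2 in 20 (60.6%), against 41.5% and 15.2% of all 27025 genes in the table. Among the 13373 genes of the table with 10 normalized counts in 3 samples the shares were 55.9% and 24.0%. The windows of these genes were also richer in G and C, with a median of 61.0% against 52.4% of all windows, so the shares are given as a description. A match of these letters is no proof of binding. Gpi1, which rose in both lines, had 0 places. Windows are shown for 2 genes that rose in both lines (Car9 and Egln3), for 3 that were called in 57SCLC and not in 46LCNEC (Hk2, Bnip3 and P4ha1, of which the difference between the lines was called for Hk2) and for Ldha, whose difference between the lines was called, each 5′ to 3′ on the strand of the gene with the matches on either strand in capitals. In GRCm38.p6 they lie at chr4:43506776-43507025 (+) for Car9, chr12:54203875-54204124 (−) for Egln3, chr6:82774455-82774704 (−) for Hk2, chr7:138909507-138909756 (−) for Bnip3, chr10:59323046-59323295 (+) for P4ha1 and chr7:46845554-46845803 (+) for Ldha.
Car9: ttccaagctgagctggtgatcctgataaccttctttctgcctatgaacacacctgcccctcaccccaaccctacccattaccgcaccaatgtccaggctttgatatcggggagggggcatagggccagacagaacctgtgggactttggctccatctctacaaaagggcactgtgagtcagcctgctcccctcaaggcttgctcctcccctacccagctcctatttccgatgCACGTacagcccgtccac
Egln3: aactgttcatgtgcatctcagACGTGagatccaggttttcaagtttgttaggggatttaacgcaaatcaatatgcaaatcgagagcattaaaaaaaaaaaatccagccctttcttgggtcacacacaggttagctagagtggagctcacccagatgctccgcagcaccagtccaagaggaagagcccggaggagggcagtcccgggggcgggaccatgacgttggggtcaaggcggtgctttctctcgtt
Hk2: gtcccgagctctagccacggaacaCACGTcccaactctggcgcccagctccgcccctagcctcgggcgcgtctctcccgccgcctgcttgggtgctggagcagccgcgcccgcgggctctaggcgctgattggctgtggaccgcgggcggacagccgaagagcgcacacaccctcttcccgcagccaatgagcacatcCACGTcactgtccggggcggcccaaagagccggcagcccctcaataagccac
Bnip3: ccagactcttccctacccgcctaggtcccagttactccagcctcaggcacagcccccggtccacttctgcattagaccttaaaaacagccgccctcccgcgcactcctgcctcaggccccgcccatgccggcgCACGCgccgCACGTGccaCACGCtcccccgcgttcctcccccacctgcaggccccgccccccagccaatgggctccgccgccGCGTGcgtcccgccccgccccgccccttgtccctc
P4ha1: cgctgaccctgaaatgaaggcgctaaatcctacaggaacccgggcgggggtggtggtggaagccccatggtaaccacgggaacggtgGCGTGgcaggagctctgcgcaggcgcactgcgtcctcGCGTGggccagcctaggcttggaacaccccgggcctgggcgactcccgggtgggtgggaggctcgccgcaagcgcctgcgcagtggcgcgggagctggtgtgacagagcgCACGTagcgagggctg
Ldha: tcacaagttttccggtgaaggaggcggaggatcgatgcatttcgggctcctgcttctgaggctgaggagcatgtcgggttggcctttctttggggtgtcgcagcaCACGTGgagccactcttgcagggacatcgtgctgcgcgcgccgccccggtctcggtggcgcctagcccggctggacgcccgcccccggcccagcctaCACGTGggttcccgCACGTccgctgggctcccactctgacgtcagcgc
Car9 and Egln3 each hold 1 place, Hk2 holds 2, P4ha1 and Ldha 3 and Bnip3 4. The single place of Car9 lies within the last bases before its start, whereas that of Egln3 lies at the far end of its window.

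The share that each isozyme held among its kin differed between culture and tumor in several sets. Shares were taken of normalized counts per kilobase of the canonical transcript, 10 shares in all, and an exact two-sided permutation test of 3 against 3 cannot go below p = 0.10. Adjusted over the 20 tests, that p becomes 0.143, so none of these differences passes a threshold of 0.05 and they are given as values. GLUT1 held 93.3% ± 0.41 of the GLUT1 and GLUT3 transcripts in 46LCNEC_cell and 76.6% ± 8.66 in 46LCNEC_allo, and 98.3% ± 0.41 and 76.7% ± 10.9 in 57SCLC, differences of −16.7 and −21.7 percentage points with no overlap in either line (exact permutation p = 0.10 for both). In Lung the share was 18% ± 2.38. Hk2 was 1.38% ± 1.94 of the hexokinase transcripts in 57SCLC_cell and 12% ± 1.54 in its tumors, and 13.5% ± 0.64 and 18.7% ± 4.08 in 46LCNEC.

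The phosphofructokinase subunits had different shares in the lines in both settings, differences that were not tested. The platelet subunit made up 60.3% ± 1.91 and 50.3% ± 1.64 in 57SCLC_cell and 57SCLC_allo but 16.0% ± 0.69 and 21.8% ± 6.40 in 46LCNEC_cell and 46LCNEC_allo. The muscle subunit was at 4.86% ± 0.52 and 1.65% ± 0.33 in 57SCLC against 21.8% ± 0.93 and 22.8% ± 2.52 in 46LCNEC. Neuronal enolase was 45.4% ± 0.75 of the enolase transcripts in 46LCNEC_cell and 66.8% ± 3.83 in 46LCNEC_allo, and 57.1% ± 5.30 and 49.2% ± 3.67 in 57SCLC (exact permutation p = 0.10 for each). MCT4 was 81.6% ± 0.93 of the MCT1 and MCT4 transcripts in 46LCNEC_cell and 71.3% ± 1.16 in 46LCNEC_allo, and 55.7% ± 18.3 and 88.4% ± 1.45 in 57SCLC, where flask C had 76.8%. Ldhb stayed at 1.56% ± 0.22 of the lactate dehydrogenase transcripts or less in the tumor groups on average, against 20.6% ± 1.83 in Lung. The share of Epas1 in Hif1a and Epas1 could not be read because Hif1a is listed at 0.

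**Figure D4:**
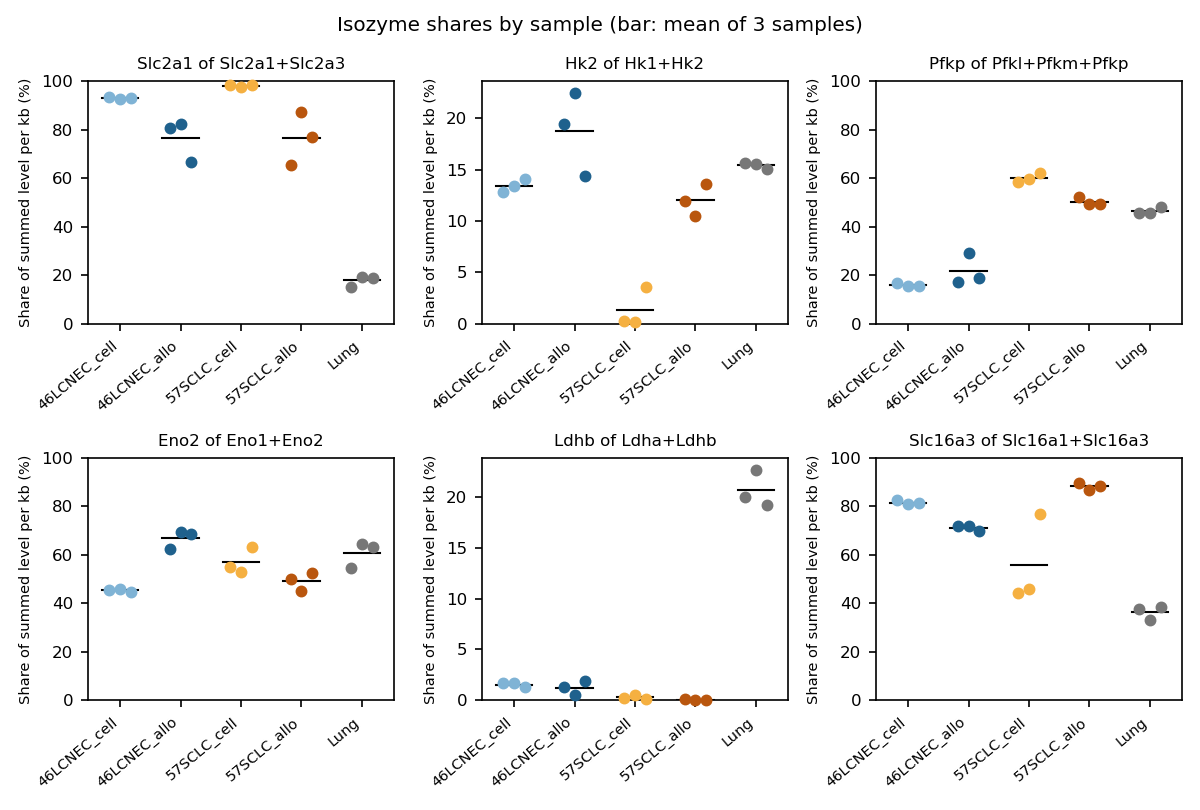
Share of 6 isozymes in the summed level per kilobase of their pair or trio, in percent, for every sample, with the mean of each group as a bar. The GLUT1 share is lower in all tumors than in all cultures of either line, the MCT4 and neuronal enolase shares differ in opposite directions in the 2 lines, and the y axes of Hk2 and Ldhb end lower.

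In culture the lines were far apart, where line, growth form and passage cannot be told apart. In 57SCLC_cell, 21 of 34 genes were lower and 3 higher than in 46LCNEC_cell, with a median log2 difference of −1.41, against 22.2% of 16920 genes lower and 23.9% higher. Scaling to the library total in place of the deposited factors moves the median of all genes in this comparison by 0.23 on the log2 scale. Among the lower genes were Hk2 (−5.18, SE 0.92, adjusted p = 0.00109), a call lost with DESeq2 on the reads, Ldhb (−4.69, SE 0.26, adjusted p = 1.08e-06), Slc2a3 (−3.54, SE 0.25, adjusted p = 4.68e-06) and P4ha1 (−3.37, SE 0.55, adjusted p = 0.000688). The 3 higher ones were Pfkp (1.62, SE 0.26, adjusted p = 0.000566), Ankrd37 (1.44, SE 0.36, adjusted p = 0.00718) and Epas1 (1.25, SE 0.15, adjusted p = 0.000107). Ankrd37 lost its call without any single dish of 46LCNEC_cell and with the letters as a block, and Car12 and Ldha lost theirs without any single sample other than flask C. With scaling to the library total, Pfkl and Car12 were no longer called, and neither was Ldha with edgeR or DESeq2 on the reads nor Car12 with all 15 samples in 1 model. Without flask C, 25 genes were lower, with Ndrg1, Aldoc, Pfkfb3 and Bnip3 added.

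Under the skin most of these differences were no longer called. Between 57SCLC_allo and 46LCNEC_allo 2 genes were higher and 3 lower, with a median of 0.04, against 16.1% of 17502 genes higher and 14.2% lower. Scaled to the library total, 5 were higher and 3 lower, so the share of higher calls depends on the scaling, which moves the median of all genes by 0.26. Ankrd37 (2.41, SE 0.44, adjusted p = 0.00353) and Pfkp (1.69, SE 0.29, adjusted p = 0.00278) were higher in 57SCLC_allo, and both calls ended without tumor 312 or any single 57SCLC tumor. Car9 (−4.37, SE 0.71, adjusted p = 0.0021), Pfkm (−3.35, SE 0.20, adjusted p = 3.06e-05) and Ldhb (−3.15, SE 0.43, adjusted p = 0.000947) were lower, and the last 2 held without any single sample while Car9 was lost without tumor 275 or tumor 316. All 5 also differed in culture, and 19 genes were called between the lines in culture but not between the tumors. Over all genes the calls between the tumors were also fewer than in culture, where 23.9% were higher and 22.2% lower. Between the tumors 16 of the 34 genes had an unadjusted p under 0.05 in the limma test, so genes without a call were not shown to be alike. Without tumor 319, Slc16a3 (1.37), Gpi1 (1.26) and Bnip3 (2.32) were also higher, 5 in all.

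Compared with normal lung, the genes were higher more often than lower in every group. In 46LCNEC_cell 20 were higher and 5 lower (background 20.6% and 35.0% of 18142 genes). In 46LCNEC_allo 18 were higher and 3 lower (13.4% and 22.1% of 18033), in 57SCLC_cell 11 and 8 (21.1% and 32.7% of 18467), and in 57SCLC_allo 22 and 5 (18.9% and 26.9% of 18517). Without flask C the 57SCLC_cell count turned to 9 higher and 13 lower, and without tumor 319 the count of lower genes in 46LCNEC_allo was 5. In 46LCNEC_cell the log2 difference from Lung was 4.70 for Slc16a3 and 3.96 for Eno1, and that of Egln3 was 6.50 in 46LCNEC_allo and 5.35 in 57SCLC_allo. Epas1 was lower in all 4 groups, with log2 differences from −8.70 in 46LCNEC_cell to −5.32 in 46LCNEC_allo, and Ldhb was lower in all 4 as well. These comparisons share the Lung samples, and lung tissue carries the endothelium and leukocytes described above, with leukocyte markers at 88852 to 117253.

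Ordered by group mean, 12 of the 34 genes were highest in 46LCNEC_cell, 9 in 46LCNEC_allo, 8 in 57SCLC_allo, 5 in Lung and 0 in 57SCLC_cell. The lowest group was Lung for 17 genes and 57SCLC_cell for 12. This order was not taken over all genes, so these counts have no background share. Neighbors in the order often overlapped. Bnip3 ran from 57SCLC_allo through 46LCNEC_allo, Lung and 46LCNEC_cell to 57SCLC_cell with each neighbor overlapping the next, while Epas1 ran from Lung through 46LCNEC_allo, 57SCLC_allo and 57SCLC_cell to 46LCNEC_cell with none overlapping. Per kilobase of transcript, Pkm was the most abundant gene in every group except Lung, where Epas1 was, at 28085 ± 1288 normalized counts per kilobase in 46LCNEC_cell and 7141 ± 2332 in 57SCLC_cell, and Ldha followed at 13244 ± 947 in the former.

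Lists of related genes put these values in context. Of 28 further hypoxia targets, 12 rose and 0 fell in 57SCLC with a median of 0.95, where 14.4% of all genes rose and 2.29% fell, and 22 of the 28 had an unadjusted p under 0.05 in the limma test. In 46LCNEC, where 14.4% of all genes rose and 8.45% fell, 3 rose (Angptl4, Ndufa4l2 and Ppp1r3c, which also rose in 57SCLC) and 2 fell (Lox and Spag4), with a median of 0.20. The lysyl oxidase gene Lox was at 121250.5 ± 5264 in 46LCNEC_cell and 17150 ± 4191 in 46LCNEC_allo, where it fell (log2 difference −2.85, SE 0.20, adjusted p = 5.65e-05), and was at 4.36, 9.65 and 1.56 in the 57SCLC flasks against 3756, 2646 and 4062 in the 57SCLC tumors. Plod2, which hydroxylates collagen lysines, was at 2, 1 and 3 reads in the 57SCLC flasks and at 126, 151 and 278 reads in the tumors, and Tmem45a at 1, 0 and 0 and at 118, 124 and 274 reads. Fibroblasts make Lox and Plod2, and the summed fibroblast markers given above were also higher in the 57SCLC tumors, a part that was not tested.

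Of 18 other glycolysis genes, 13 were tested in 46LCNEC, where 1 rose and 4 fell (Slc2a4, Slc16a7, Pfkfb2 and Eno3), and 14 in 57SCLC, where 2 rose and 0 fell. The medians were −0.96 and −0.13, and 11 and 7 of the genes had an unadjusted p under 0.05 in the limma test. Over all genes 14.4% rose in either line, and 8.45% fell in 46LCNEC and 2.29% in 57SCLC, so the share risen in 57SCLC was near that of all genes. Hk3, a hexokinase known from white blood cells, rose in both, from 2.76 ± 2.50 to 401 ± 152 in 46LCNEC and from 11.4 ± 5.22 to 455.5 ± 98.8 in 57SCLC (log2 differences 6.87 and 5.29), with 6, 1 and 2 reads in the 46LCNEC dishes. The leukocyte markers were higher in the same tumors, and their part was not tested. Eno3, the muscle enolase, fell in 46LCNEC from 1616 ± 49.4 to 342 ± 218 (−2.57, SE 0.58, adjusted p = 0.00873), and Pgm1, which links glycogen to glycolysis, rose in 57SCLC (1.54, SE 0.29, adjusted p = 0.00352). Of 12 genes for pyruvate entry into mitochondria, 2 rose and 1 fell in 46LCNEC, and Pdk4 alone rose in 57SCLC. Pdk4, a starvation-induced kinase of pyruvate dehydrogenase, fell in 46LCNEC from 9077 ± 1653 to 632 ± 165 (−3.86, SE 0.22, adjusted p = 2.1e-05), unlike Pdk1, and in 57SCLC was at 2 reads over all flasks and 54 over all tumors. Pdk2 (1.12) and the pyruvate carrier gene Mpc1 (1.09) rose in 46LCNEC.

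In the other lists only genes of the HIF machinery were called, and only in 46LCNEC. Over all genes 14.4% rose in either line, and 8.45% fell in 46LCNEC and 2.29% in 57SCLC. Of 13 genes of the HIF machinery, 0 rose and 3 fell in 46LCNEC, namely Hif3a (64, 23 and 22 reads in the dishes and 1, 0 and 3 in the tumors), Arnt2 (log2 difference −1.93) and Cul2 (−1.08). In 57SCLC 0 were called by limma and 3 had an unadjusted p under 0.05. None of the 6 pentose phosphate genes tested, and none of the gluconeogenesis genes tested, 3 in 46LCNEC and 5 in 57SCLC, was called in either line by limma. At an unadjusted p under 0.05 these were 4 and 3 pentose phosphate genes and 2 and 1 gluconeogenesis genes in 46LCNEC and 57SCLC. With so few genes tested, a count of 0 cannot be told apart from the shares of all genes.

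Some of these values carry uncertainty from near-identical copies. At 90% identity or more over at least 50% of the transcript, GRCm39 holds 119 further copies of Gapdh, 9 of Ldha, 5 of Eno1, 4 each of Aldoa, Pgam1 and Pkm, 2 each of Bnip3, Pgk1 and Tpi1 and 1 of Ldhb, and 0 for the other 26 genes. Neither the strand setting nor the treatment of reads with several alignments is given in the sources used here, so reads of these 10 genes may be lost to or shared with copies. Among them are Aldoa, Tpi1, Gapdh, Pgk1, Pgam1, Eno1, Pkm and Ldha, whose difference between the lines was called positive. Exon bases shared with other genes made up 43.8% of Aldoa, 41.65% of Gapdh, 40.6% of Pkm and 39.8% of Pfkl. Of 8 retrocopies listed, 4 were tested, and Aldoart1 (1.55) and Aldoart2 (1.39) rose in 57SCLC, as did Aldoa. The difference between the lines was positive for all 4 tested, which include Pgk1-rs7 and Pgam1-ps2, where 10.8% of all genes were positive. All 4 were also lower in 57SCLC_cell than in 46LCNEC_cell, where 22.2% of all genes were lower.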

How the data were processed

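Per the labels and the methods, the authors mapped paired reads with Rbowtie2 (GRCm39), summarized them by gene through featureCounts on GENCODE M27, and divided the counts by DESeq2 size factors. The deposited values are therefore a signal, normalized counts per gene, and not raw counts. All non-zero values were whole multiples of 1 read (tolerance 0.01), which gave 9480244 to 44876572 reads per sample, and this depth covers counting error only. The genes and lists were chosen with earlier results of these data known. All 36 genes were named, with at most 3 called genes of each further list and those behind counts of 5 or fewer, the latter chosen after their values were seen. Comparisons used limma 3.58.1 in R 4.3.3 (trend, Benjamini-Hochberg over all genes tested) on log2(normalized count + 1), the samples compared and genes with 10 normalized counts in 3 samples. Such fold changes understate changes of low genes. Samples of a group were separate dishes or flasks of 1 line, tumors of 1 line, or lungs, so p-values measure the spread between these. Alternatives were edgeR 4.0.16 (TMM) and DESeq2 1.42.0 on the recovered reads, library-total scaling, no filter, a pseudocount of 5, all 15 samples, a replicate block, each sample left out and, chosen after seeing the data, shares per kilobase of all exons. Coordinates, lengths and copies (BLAST 2.17.0) came from GRCm39 with GENCODE M39, promoter windows from RefSeq (GRCm38.p6). Figures used matplotlib 3.10.9.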

Additional observations from a re-analysis of the deposited data

Results flagged for a closer look

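The change from culture to allograft differed between the lines, by the limma interaction over 12 samples, for 13 of the 34 genes tested. The values are 57SCLC minus 46LCNEC on the log2 scale. The difference was 4.496 for Hk2, 4.075 for Slc16a3, 3.443 for Slc2a3, 2.824 for Ldha, 2.568 for Eno1 and 2.509 for Pgk1. It was 2.207 for Aldoa, 2.139 for Pgam1, 2.042 for Pkm, 1.6 for Tpi1, 1.525 for Gapdh and 1.379 for Pfkl. Epas1 was the 1 gene with the opposite sign, at −1.795. When each of the 12 samples was left out in turn, 12 of the 13 calls held in every fit, the exception being Hk2, which held in 2 and was also lost with edgeR and DESeq2 on the recovered reads, where its value went down to 3.30. No group held 4 or more samples, so single samples were not tested as outliers.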

How the results depend on the processing

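The number of genes called depended on single samples. Leaving out 1 sample at a time gave, for 46LCNEC_allo against 46LCNEC_cell, 3 to 10 genes risen and 1 to 6 fallen, for 57SCLC_allo against 57SCLC_cell 11 to 26 risen, for 57SCLC_allo against 46LCNEC_allo 0 to 5 higher, for 46LCNEC_allo against Lung 3 to 5 lower and for 57SCLC_cell against Lung 6 to 13 lower. With DESeq2 on the recovered reads 46LCNEC had 11 risen and 2 fallen, and 2 fell with all 15 samples in 1 model. In 57SCLC 1 fell with DESeq2 and 1 with library-total scaling, which also gave 5 genes higher in 57SCLC_allo than in 46LCNEC_allo. The cause was not tested. Uncalled differences that changed sign were, in 46LCNEC, Hk2 (0.019 with edgeR, 0.0051 with DESeq2), Slc2a1 (0.088 and 0.069) and Car12 (0.46 and 0.44), with Aldoc at −0.014 under library-total scaling. With 1 sample left out, Hk2 ran from −0.31 to 0.24, Aldoc from −0.48 to 0.39, P4ha2 from −0.39 to 0.71, Pfkp from −0.11 to 0.46, Slc2a1 from −0.87 to 0.20 and Car12 from −1.04 to 0.95. Ldhb in 57SCLC ran from −0.096 to 0.38, and Gpi1 between the cultures from −0.18 to 0.11. Among the 46LCNEC isozyme shares, in percentage points, Pfkm ran from −0.38 to 2.02, Ldhb from −0.65 to 0.017 and P4ha2 from −8.60 to 3.72. Library-total scaling moved the median of all genes by 0.23 between the cultures, 0.26 between the allografts, 0.23 for 57SCLC_cell and 0.21 for 57SCLC_allo against Lung. The letters A, B and C did not pair the cultures (correlations 0.092, −0.084 and −0.006), and with them as a replicate block 2 genes were higher and 22 lower in 57SCLC_cell, with Ankrd37 no longer called. Depth limited Car9 (30 reads) in 57SCLC_cell and Ldhb (25 reads) in 57SCLC_allo.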

Other observations

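Markers of cell types that no comparison above turned on also differed between culture and tumor. Summed proliferation markers were 33158 to 35501 normalized counts in 46LCNEC_cell and 17769 to 27863 in 46LCNEC_allo, and 44232 to 48123 and 29607 to 38878 in 57SCLC, so the tumors lay below the cultures in both lines. Summed red cell markers were at most 1.88 in any culture and 238 to 2277 in the tumors. Fat cell markers were 54.4 to 85.3 in 46LCNEC_cell and 444 to 3089 in 46LCNEC_allo, and 2.18 to 7.84 and 218 to 342 in 57SCLC. Of the 6 fat markers, Fabp4 alone reached the filter in these comparisons, and it rose in both lines. The sum of 3089 was that of tumor 312, against 508 in tumor 319 and 444 in tumor 321. Cidec, Plin1 and Lep were at or under 3 reads in every 57SCLC tumor. The sums are therefore not read as fat cells. Keratinocyte markers were 349.9 to 383 in 46LCNEC_cell and 388 to 1393 in 46LCNEC_allo, and 152 to 189 and 117 to 146 in 57SCLC, so they were higher in the tumors of the first line and lower in those of the second. Skeletal muscle markers were 263 to 300.2 and 64.2 to 141 in 46LCNEC and 236 to 312 and 177 to 215 in 57SCLC, so they were not higher in the tumors. The part of these cells in the results was not tested.

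The number of calls that held in every fit with 1 sample left out was 4 of 8 for 46LCNEC_allo against 46LCNEC_cell, 11 of 22 for 57SCLC_allo against 57SCLC_cell, 18 of 24 between the cultures and 2 of 5 between the allografts. Under every other setting it was 7, 14, 19 and 5.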
